A study of Mus musculus with 14 samples.

Results

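The cell cycle inhibitor genes Cdkn2a, Cdkn2b, Cdkn2c, Cdkn2d, Cdkn1a and Cdkn1b were followed through a mouse model of T-cell acute lymphoblastic leukaemia (T-ALL). T-ALL is a cancer of immature T cells, and in this model it is driven by the transcriptional regulator Lmo2. The 6 genes were chosen by name as members of the INK4 and CIP/KIP families. Of these, 5 had a row among the 12421 genes of the count table, and Cdkn2b was not analysed here. RNA was sequenced from 14 libraries of 8 transplanted tumours, which the labels place in 3 classes by their reliance on Lmo2. The dependent tumours were VTL-19 and VTL-24, each with 1 library without doxycycline (Dox). The evolving tumours VTL-153, VTL-21 and VTL-25 and the independent tumours VTL-33, VTL-44 and VTL-81 each had 1 library from mice without Dox and 1 from mice given Dox in food pellets at 600 mg/kg.

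All libraries came from donor cells positive for both CD45.1 and CD45.2, sorted from the spleen of secondary C57BL/6-Rag1-/- hosts, which lack mature T and B cells of their own. The donor leukaemias had arisen after thymocytes were transferred into irradiated C57BL/6-Ly5.1;FVB F1 mice. The labels do not state the promoter of the transgene, which way Dox acts on Lmo2, the age of the mice, the duration of Dox, or whether a library holds 1 mouse or several. In these data Dox went with less Lmo2 RNA in every paired tumour. In the evolving tumours it had 303 to 708 CPM (counts scaled to a common library total, TMM-normalised) without Dox and 0.198 to 3.24 CPM with Dox. Among the independent tumours, VTL-33 had 600.3 CPM without and 1.32 CPM with Dox, compared with 9.28 and 4.09 CPM for VTL-44 and a drop from 27.2 to 8.46 CPM for VTL-81, so VTL-33 carried Lmo2 RNA at the level of the evolving class before Dox.

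Cells enter S phase when cyclin-dependent kinases (CDKs) inactivate the retinoblastoma protein and release E2F transcription factors. The INK4 family (Cdkn2a, Cdkn2b, Cdkn2c, Cdkn2d) blocks CDK4 and CDK6, while the CIP/KIP family (Cdkn1a, Cdkn1b and Cdkn1c) binds CDK complexes more broadly, mainly those of CDK2. Cdkn2a also encodes ARF, which is read in another frame from its own first exon and stabilises p53 by holding back MDM2. Loss of the CDKN2A region is among the most frequent lesions of human T-ALL, and developing thymocytes use Cdkn2c, Cdkn2d and Cdkn1b to leave the cell cycle.

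The counts did not separate the INK4a and ARF products of Cdkn2a. The gene (ENSMUSG00000044303, minus strand of chromosome 4, bases 89274471 to 89294653 of mm10, GENCODE M21) has coding transcripts from 2 starts that lie 12.5 kb apart. The upstream start belongs to the transcript for ARF and the downstream start to that for INK4a. Cdkn2b lies 11.6 kb from the Cdkn2a gene model, on the side of the upstream start. The stretches just before both starts are shown because a change at either start would enter the same count. They were taken from RefSeq (GRCm38.p6, the assembly of mm10), on the minus strand and written 5′ to 3′. Capitals mark an E2F-type match and a GC box.
Cdkn2a upstream start, chr4:89294654-89294869: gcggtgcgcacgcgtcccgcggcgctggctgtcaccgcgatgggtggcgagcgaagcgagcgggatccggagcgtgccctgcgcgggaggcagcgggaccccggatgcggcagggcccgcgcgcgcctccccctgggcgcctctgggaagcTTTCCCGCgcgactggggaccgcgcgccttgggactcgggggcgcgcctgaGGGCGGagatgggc
Cdkn2a downstream start, chr4:89282193-89282442: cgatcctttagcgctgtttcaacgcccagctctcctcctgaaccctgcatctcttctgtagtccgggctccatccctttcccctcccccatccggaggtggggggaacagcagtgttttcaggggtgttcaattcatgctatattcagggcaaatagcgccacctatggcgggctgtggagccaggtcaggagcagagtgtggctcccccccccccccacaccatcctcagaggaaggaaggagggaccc

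The E2F-type match (any of TTTCCCGC, TTTCGCGC, TTTGGCGC or TTTGCCGC, on either strand) began 99 bases before the RefSeq start of the upstream transcript. Such a match was present in 1.9% of the 32851 RefSeq promoter windows of 250 bases. A GC box (GGGCGG, either strand) stood 48 bases before the same start and another at 14 bases, outside the stretch printed. GC boxes were found in 32.7% of windows. The window of the downstream start held neither, and its GC content was 60.0%, against 78.4% for the upstream window and a median of 52.4% over all windows. A match is a run of letters and not a measured binding site.

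Depth was similar across the series, with 18214415 to 24048281 counts per library. Summed CPM of 11 T lineage markers was 5458 to 8571, with all 11 in the table. Of the 14 myeloid markers, all 14 were listed, with sums of 35.6 to 124 CPM in dependent tumours, 19.5 to 305 and 19.8 to 199 CPM in evolving tumours without and with Dox, and 80.7 to 2049 and 208 to 3086 CPM in independent tumours. Elane, Ctsg, Cd14 and Fcgr1 were at 0 in 1 to 3 libraries. The B cell, erythroid, stromal and NK lists had 3 of 9, 6 of 10, 5 of 10 and 1 of 6 genes in the table. In evolving tumours the B cell sum was 114 to 253 CPM without and 225 to 6281 CPM with Dox, and the erythroid sum 3.60 to 9.26 and 0.455 to 169.9 CPM. VTL-21 with Dox held the highest of both. Its Ighm went from 222 CPM without to 6275 CPM with Dox. The other listed B cell genes went the other way in VTL-21, Cd79b from 15.1 to 4.47 CPM and Blk from 15.5 to 1.52 CPM. The libraries of VTL-153 and VTL-25 without Dox were unusually close: only 3 genes exceeded 20 CPM in either one while being under 0.5 CPM in its partner, whereas the other pairs of libraries without Dox had 21 to 130 such genes. The median squared difference of their counts was 19.5 times that of sampling noise alone. This was the least of the pairs within a group, which ran up to 90.1 times, and each library was kept as a sample. Both had Trbv24 and then Trbv13-1 as their leading T cell receptor beta variable segments, as did VTL-21 without Dox, whereas VTL-25 with Dox was led by Trbv5. The VTL-25 libraries also deviated together least from their group means (correlation 0.04, against 0.17 to 0.70 in the other 5 tumours). Whether they hold the same clone was not tested, so Dox results of the inhibitors in evolving tumours are also given without VTL-25.

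**Figure D1:**
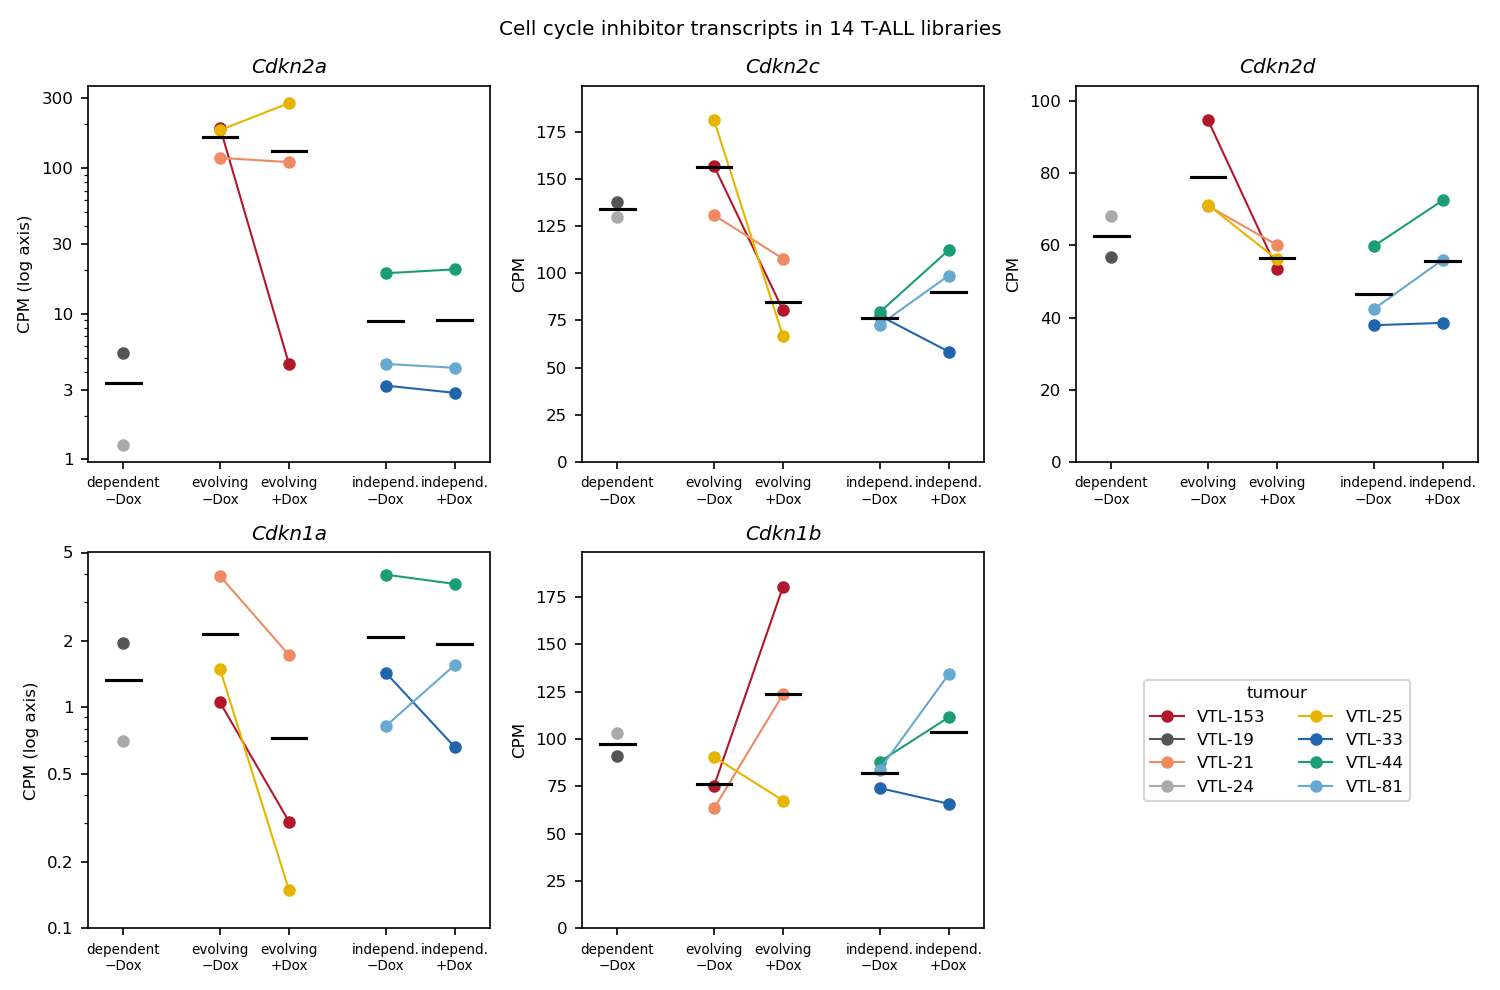
CPM of each measured inhibitor gene (vertical axis, on a log scale for Cdkn2a and Cdkn1a) by tumour class and Dox, with 1 point per library, lines joining the libraries of 1 tumour and a bar at the group mean. Cdkn2a lay at 109.7 CPM or more in 5 of the 6 evolving libraries and at 20.2 CPM or less in the other 9 libraries.

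Cdkn2a was the inhibitor whose level depended most on the tumour. Evolving tumours without Dox had 163 ± 39.6 CPM (SD, n = 3), independent tumours 8.90 ± 8.74 CPM (n = 3) and dependent tumours 3.34 ± 2.93 CPM (n = 2). Single libraries had 189.6 CPM in VTL-153, 117 CPM in VTL-21 and 182 CPM in VTL-25, against 5.41 CPM in VTL-19 and 1.26 CPM in VTL-24. Independent tumours without Dox had 3.21 CPM in VTL-33, 19.0 CPM in VTL-44 and 4.53 CPM in VTL-81. Every evolving library without Dox was thus above every other library without Dox, and the lowest of them rested on 2613 counts and the highest of the rest on 382. Pairwise, the groups of 19.5% of all genes did not overlap between evolving and dependent tumours, and of 23.5% between evolving and independent tumours.

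Independent tumours lay below evolving tumours in Cdkn2a, at a fitted log2 difference of -4.20 (SE 0.83, 18.3-fold lower), with an unadjusted p of 0.00136. Across all 12348 genes tested the adjusted p was 0.0911 (edgeR quasi-likelihood, Benjamini-Hochberg), so Cdkn2a did not pass the 0.05 threshold. DESeq2 gave -4.20 with an adjusted p of 2.72e-07 and limma voom gave -4.67 with 0.0518. Without VTL-44, the independent tumour with the most Cdkn2a, the difference was -5.39 and the adjusted p 0.0400 in edgeR. Over all alternatives the adjusted p ran from 2.72e-07 to 0.295. In this comparison 0.259% of genes passed the threshold and the groups of 23.5% of genes did not overlap. Of the 5 inhibitors, 1 passed (Cdkn2c) and 3 did not overlap, Cdkn2a, Cdkn2c and Cdkn2d, all lower in the independent tumours.

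Cdkn2a was higher in evolving than in dependent tumours by a fitted 5.61 on the log2 scale (SE 1.08, 49.0-fold, unadjusted p = 0.00112). This was 4.91 without VTL-24 and 7.01 without VTL-19, so the fold depends on which of the 2 dependent tumours is used. The adjusted p was 0.814 in edgeR and 3.43e-09 in DESeq2. With edgeR no gene of 12348 passed in this comparison, 0% by adjusted p and 419 genes (3.39%) at an unadjusted p under 0.05, while DESeq2 called 64 genes and limma voom 0. The groups did not overlap for 3 of the 5 inhibitors, against 19.5% of all genes: Cdkn2a and Cdkn2d were higher in evolving tumours, and Cdkn1b was lower. Between independent and dependent tumours Cdkn2a overlapped, at a fitted difference of 1.42 (SE 0.89, adjusted p = 0.540, edgeR), which was 0.22 without VTL-44 and 2.81 without VTL-19. The comparisons between classes without Dox share their libraries and are not independent of each other.

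Dox left Cdkn2a near its former level in all tumours but VTL-153 and VTL-25. VTL-153 had 189.6 CPM (3792 counts) without Dox and 4.502 CPM (89 counts) with Dox, 42.1 times less. VTL-21 had 117 CPM without and 109.7 CPM with Dox. VTL-25 had 182 CPM without and 279 CPM with Dox, 1.53 times more, the highest level of the series. The 3 evolving tumours therefore did not share a direction.

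The Dox term for Cdkn2a in evolving tumours was -1.13 on the log2 scale (SE 1.17, adjusted p = 0.721, edgeR). Without VTL-153 it was 0.25 (SE 0.21, adjusted p = 0.648), so VTL-153 sets its sign. Without VTL-25 it was -2.66 and without VTL-21 it was -2.30. Over the evolving tumours 2.13% of 12360 genes passed for Dox and 19.0% of genes did not overlap. None of the 5 inhibitors passed with edgeR, 2 did not overlap (Cdkn2c and Cdkn2d, both lower), and 3 had an unadjusted p under 0.05, as had 16.7% of all genes. DESeq2 called 1 of the 5, Cdkn2c, and limma voom called 0.

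Trbv24 and Trbv13-1 led both libraries of VTL-153, and the lead of VTL-25 changed from Trbv24 to Trbv5 with Dox. The part of clone composition in the Cdkn2a levels was not tested. In VTL-153 the summed myeloid markers were 265 CPM without and 19.8 CPM with Dox, and in VTL-25 305 and 26.6 CPM, while VTL-21 went the other way, from 19.5 to 199 CPM. The part of these other cells in the Cdkn2a levels was not tested. In these bulk samples, fewer cells that express a gene and less RNA of it per cell cannot be told apart.

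The independent tumours kept their own Cdkn2a levels with Dox. VTL-33 went from 3.21 to 2.87 CPM, VTL-44 from 19.0 to 20.2 CPM and VTL-81 from 4.53 to 4.26 CPM. VTL-44 stayed above the other two in both states, and no library of this class reached the lowest evolving value without Dox. The Dox term was -0.05 (SE 1.01, adjusted p = 1, edgeR). No gene of 12360 passed in this class, 0% by adjusted p, 87 genes (0.704%) had an unadjusted p under 0.05, and DESeq2 and limma voom called 0 genes. Correspondingly 0 of the 5 inhibitors passed and 0 were without overlap, against 1.94% of all genes.

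Lmo2 and Cdkn2a RNA were both high in the evolving libraries without Dox. In VTL-153 both were lower with Dox, Lmo2 from 708 to 0.405 CPM and Cdkn2a from 189.6 to 4.502 CPM. Some other libraries did not pair in this way, and an association between the levels was not tested. VTL-33 without Dox had 600.3 CPM of Lmo2 and 3.21 CPM of Cdkn2a, and the dependent tumours had 120.3 and 142 CPM of Lmo2 with 5.41 and 1.26 CPM of Cdkn2a. With Dox, VTL-25 had 0.198 CPM of Lmo2 and 279 CPM of Cdkn2a. With Dox, independent tumours were 3.84 below evolving tumours in Cdkn2a on the log2 scale (SE 1.46, adjusted p = 0.974, edgeR), and the groups overlapped through VTL-153. The difference was -5.20 without VTL-44 and -2.64 without VTL-25. In that comparison no gene of 12093 passed in edgeR, 0% by adjusted p, 573 (4.74%) had an unadjusted p under 0.05, DESeq2 called 94 and limma voom called 1. None of the 5 inhibitors passed and none was without overlap, against 9.64% of all genes.

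**Figure D2:**
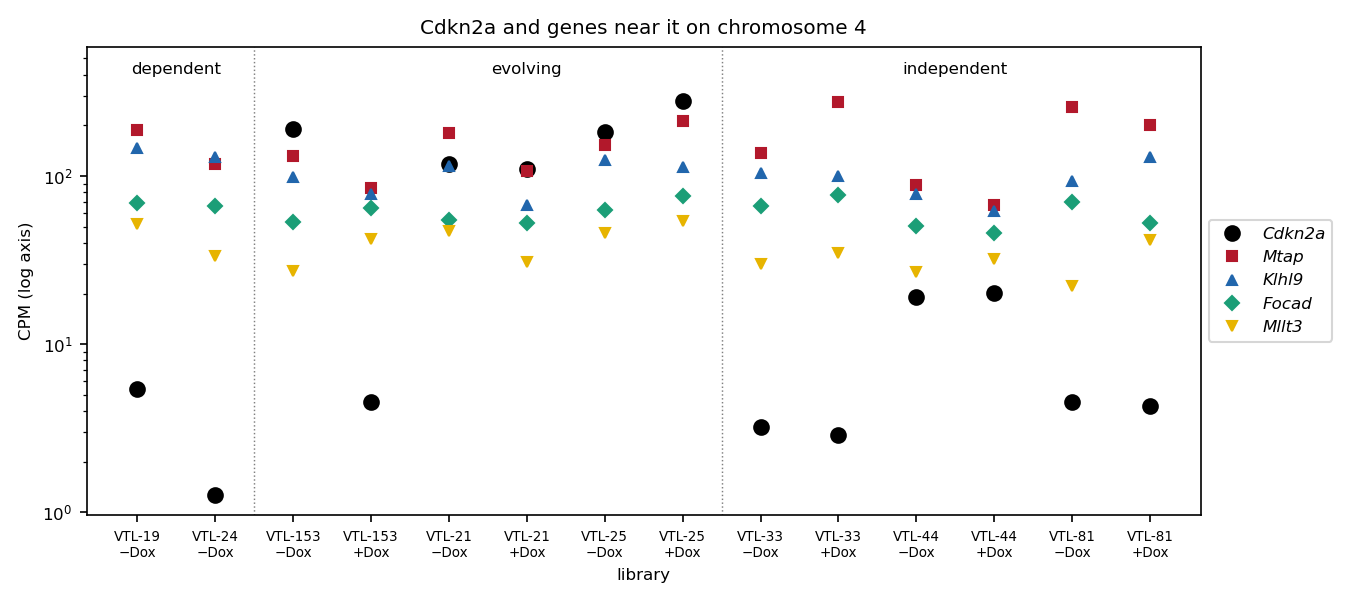
CPM on a log axis of Cdkn2a and of 4 genes near it on chromosome 4 in each library (horizontal axis), 1 symbol per gene. Mtap stayed between 66.9 and 277 CPM and Focad between 46.1 and 77.0 CPM in all 14 libraries, while Cdkn2a spanned 1.26 to 279 CPM.

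Genes listed as neighbours of Cdkn2a on chromosome 4 were read to show whether their RNA moved with it. Of 8 symbols on the list, 5 were in the table. Mtap, which encodes a methionine salvage enzyme and is often lost with CDKN2A in human tumours, ranged from 66.9 to 277 CPM, Klhl9 from 61.5 to 147.6 CPM, Focad from 46.1 to 77.0 CPM and Mllt3 from 22.1 to 53.6 CPM. Hacd4 was low, at 0.0449 to 4.42 CPM. In VTL-153 Mtap went from 131 CPM without Dox to 85.2 CPM with Dox, Klhl9 from 99.2 to 78.6 CPM, Focad from 53.05 to 64.2 CPM and Mllt3 from 27.1 to 42.4 CPM. Cdkn2a was 42.1 times lower in the same library with Dox. None of the 5 neighbours passed in any of the 7 comparisons. Cdkn2b, which lies 11.6 kb from Cdkn2a, had no row among the counts. The copy number of the locus was not measured, and a loss at the locus was not tested.

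Cdkn2c encodes the INK4 protein p18, which restrains CDK4 and CDK6 in lymphoid precursors (ENSMUSG00000028551, chromosome 4, minus strand, 109660876 to 109667189). Its levels without Dox were 138 and 130.02 CPM in the dependent tumours VTL-19 and VTL-24, and 157, 131 and 181 CPM in VTL-153, VTL-21 and VTL-25. The independent tumours VTL-33, VTL-44 and VTL-81 were lower and close together, at 77.5, 79.2 and 72.6 CPM. Group means were 134 ± 5.68 CPM (SD, n = 2), 156 ± 25.2 CPM (n = 3) and 76.4 ± 3.43 CPM (n = 3). No independent library reached the lowest library of the other classes. Pairwise, the groups of 23.5% of all genes did not overlap between independent and evolving tumours, and of 27.7% between independent and dependent tumours. Without Dox the independent tumours also had higher sums over the 5 stromal and endothelial markers in the table. These sums were 265 to 642 CPM, against 158 to 183 CPM in evolving and 146 to 185 CPM in dependent tumours. Pdgfrb had 116 to 377 CPM in independent, 18.7 to 50.9 CPM in evolving and 0 to 9.62 CPM in dependent tumours. Col1a2 was likewise higher than in both other classes. Col1a1 and Pecam1 overlapped both other classes, and Vcam1 overlapped the dependent tumours. Col1a2 and Pdgfrb were each at 0 in 1 library. The cells had been sorted as positive for both CD45.1 and CD45.2, and the purity of the sort was not tested. Myeloid sums are given above, and the part of other cells' RNA in the INK4 levels was not tested.

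Cdkn2c was the 1 inhibitor of 5 that passed in any comparison, out of 35 tests of a gene in a comparison. It was 1.03 lower in independent than in evolving tumours on the log2 scale (fitted -1.03, SE 0.14, 2.04-fold, adjusted p = 0.0496, edgeR). The call lay at the threshold: 9 of 12 alternatives lost it, with limma voom at 0.0598 and the adjusted p without VTL-25 at 0.229, while DESeq2 gave 2.12e-08. Its difference kept its sign in all 12, between -0.91 and -1.14 when any 1 tumour was left out.

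**Figure D3:**
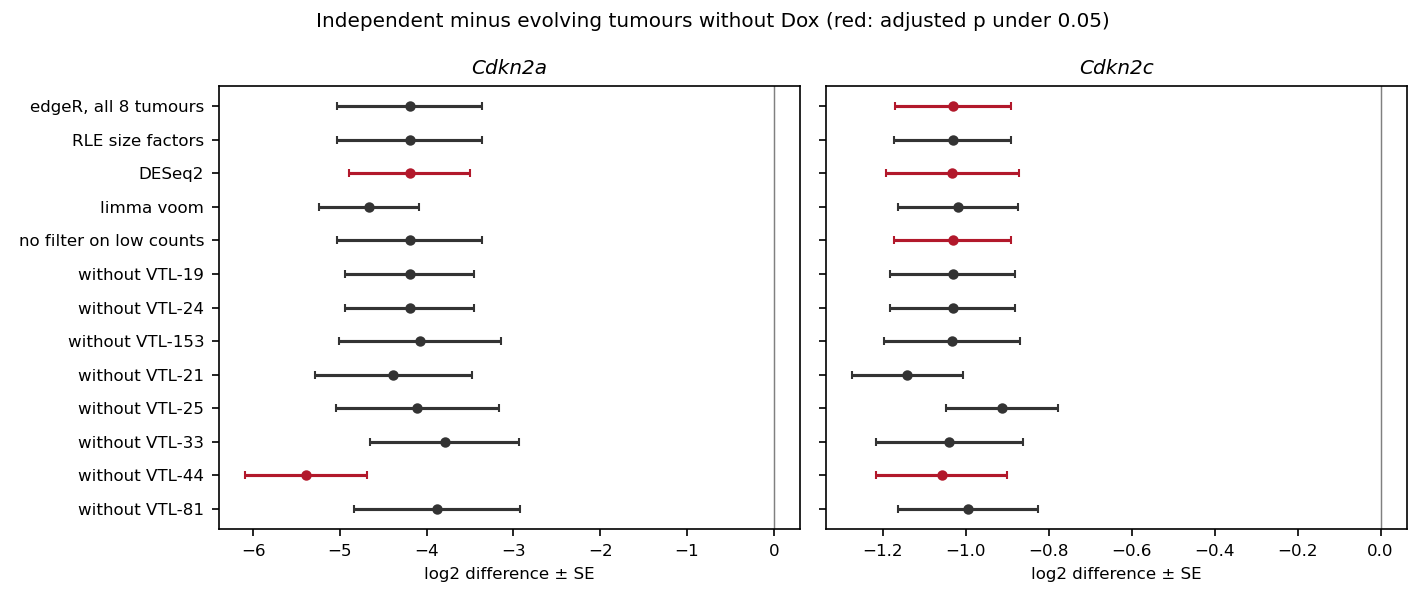
Fitted log2 difference between independent and evolving tumours without Dox for Cdkn2a and Cdkn2c (horizontal axis, bars of 1 SE) under each alternative processing and with each tumour left out (vertical axis), red where the adjusted p was under 0.05. Cdkn2c stayed between -0.91 and -1.14 with 1 tumour left out, and Cdkn2a reached -5.39 without VTL-44.

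Against dependent tumours the independent tumours were lower in Cdkn2c by 0.81 (fitted -0.81, SE 0.15, unadjusted p = 0.00102, adjusted p = 0.102, edgeR), and DESeq2 gave an adjusted p of 0.000273. There 0.0972% of genes passed, none of the 5 inhibitors did, and 2 of 5 were without overlap (Cdkn2c and Cdkn1b, both lower), against 27.7% of all genes. Dependent and evolving tumours overlapped in Cdkn2c, at a fitted 0.22 (SE 0.16, adjusted p = 1.00, edgeR).

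With Dox, Cdkn2c was lower in every evolving tumour. It went from 157 to 80.4 CPM in VTL-153, from 131 to 107.7 CPM in VTL-21 and from 181 to 66.5 CPM in VTL-25. All 3 libraries with Dox were below all 3 without, and 17.6% of all genes were likewise lower with Dox in each of these tumours. The fitted term was -0.90 (SE 0.27, adjusted p = 0.152, edgeR) and did not pass; DESeq2 gave an adjusted p of 0.0176. Without VTL-25 the term was -0.62 (adjusted p = 0.469) and without VTL-21 it was -1.23 (adjusted p = 0.0808, both edgeR).

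The independent tumours had no shared direction for Cdkn2c with Dox. VTL-33 went from 77.5 to 58.5 CPM, VTL-44 from 79.2 to 112 CPM and VTL-81 from 72.6 to 98.7 CPM, for a fitted term of 0.18 (SE 0.27, adjusted p = 1, edgeR). The difference between the responses was 1.08 (SE 0.38, adjusted p = 0.403, edgeR), which did not pass. Here 0.121% of genes passed, none of the 5 inhibitors did, and the tumours of the classes did not overlap for 2 of 5 (Cdkn2d and Cdkn1a), against 15.0% of all genes. With Dox, evolving and independent tumours had 84.9 ± 20.9 and 89.8 ± 28.0 CPM of Cdkn2c (SD, n = 3 each), and the difference of 0.07 (SE 0.30, adjusted p = 0.986, edgeR) was within the spread.

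**Figure D4:**
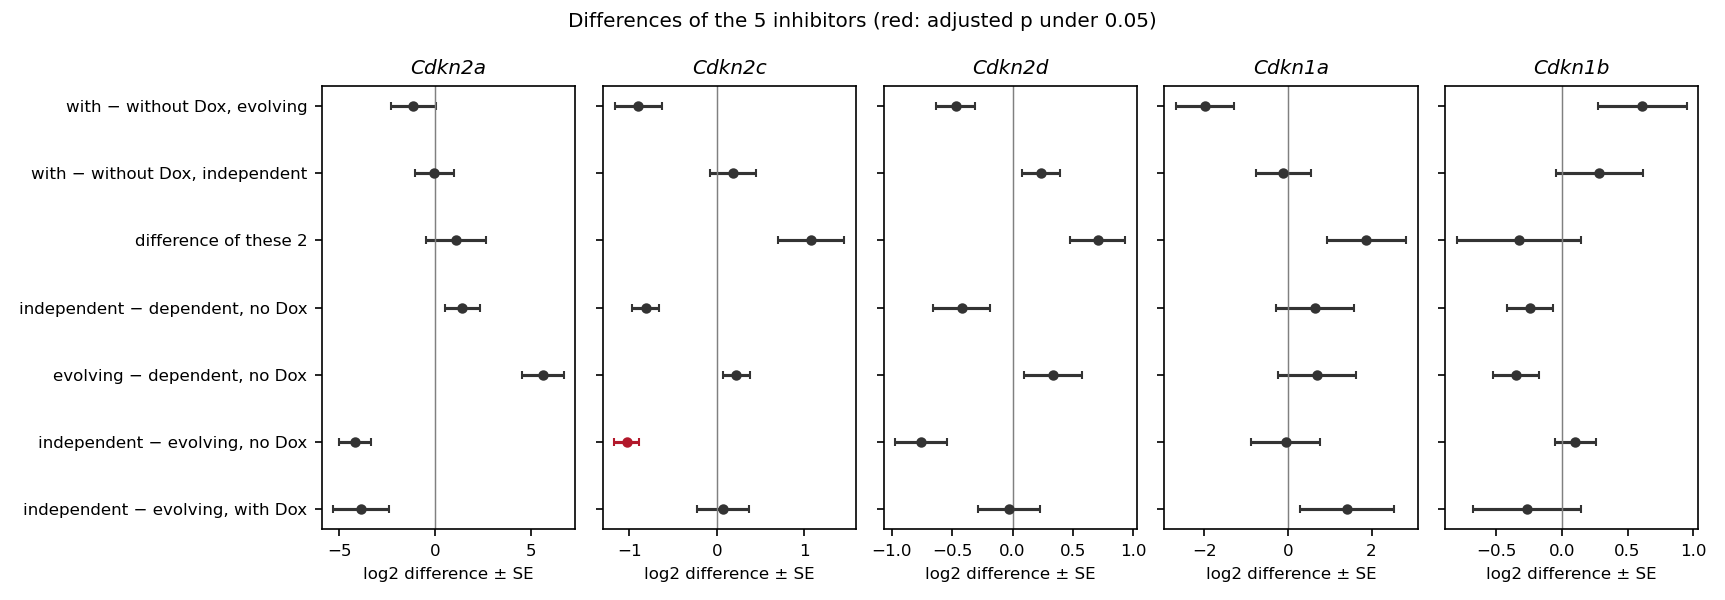
Fitted log2 difference of each inhibitor gene in each of the 7 comparisons (horizontal axis, bars of 1 SE), with the pass at an adjusted p under 0.05 marked. Cdkn2c in independent against evolving tumours without Dox, at -1.03, is the single marked pass among 35.

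Cdkn2d, which encodes the INK4 protein p19 (ENSMUSG00000096472, chromosome 9, minus strand, 21288410 to 21291407), had the narrowest range of the INK4 genes. Dependent tumours had 56.8 and 68.3 CPM, and evolving tumours without Dox had 94.7 CPM in VTL-153, 70.96 CPM in VTL-21 and 71.2 CPM in VTL-25. Independent tumours without Dox had 37.9 CPM in VTL-33, 59.8 CPM in VTL-44 and 42.3 CPM in VTL-81. Among libraries without Dox, the evolving tumours were above all of both other classes. Pairwise, the groups of 19.5% of all genes did not overlap between evolving and dependent tumours, and of 23.5% between evolving and independent tumours. Independent tumours lay 0.76 below evolving tumours (fitted -0.76, SE 0.21, adjusted p = 0.162, edgeR), which did not pass, and the DESeq2 adjusted p was 0.0277.

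Cdkn2d with Dox had lower values in the evolving tumours and nearly equal or higher values in the independent tumours, and no test of these differences passed. VTL-153 went from 94.7 to 53.5 CPM, VTL-21 from 70.96 to 60.1 CPM and VTL-25 from 71.2 to 56.1 CPM. VTL-33 went from 37.9 to 38.5 CPM, VTL-44 from 59.8 to 72.5 CPM and VTL-81 from 42.3 to 56.0 CPM. Of all genes, 17.6% were lower with Dox in all 3 evolving tumours, and for 15.0% the changes did not overlap between the classes. The Dox term was -0.47 (SE 0.16, adjusted p = 0.206) in evolving and 0.24 (SE 0.16, adjusted p = 1) in independent tumours, and the difference between them was 0.70 (SE 0.23, adjusted p = 0.358, all edgeR). The evolving term was -0.53 without VTL-25 and -0.61 without VTL-21. After Dox the classes had 56.6 ± 3.32 and 55.7 ± 17.0 CPM (SD, n = 3 each).

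Cdkn1b encodes the CIP/KIP protein p27, which holds thymocytes in a resting state and is regulated to a large extent by protein turnover that RNA does not show (ENSMUSG00000003031, chromosome 6, plus strand, 134920401 to 134925513). Without Dox its levels lay within a narrow range: 91.1 and 103 CPM in the dependent tumours, 75.2, 63.4 and 90.6 CPM in VTL-153, VTL-21 and VTL-25, and 74.1, 88.0 and 83.9 CPM in VTL-33, VTL-44 and VTL-81. With Dox it was higher in 4 of the 6 tumours. VTL-153 went to 180.5 CPM, VTL-21 to 124 CPM, VTL-44 to 111 CPM and VTL-81 to 134 CPM, while VTL-25 went to 67.5 CPM and VTL-33 to 65.8 CPM.

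The Dox term of Cdkn1b was 0.61 in evolving tumours (SE 0.34, adjusted p = 0.448) and 0.28 in independent tumours (SE 0.33, adjusted p = 1, both edgeR). Without VTL-25 the evolving term was 1.12 (adjusted p = 0.119, edgeR), and it was 0.40 without VTL-21 and 0.26 without VTL-153. Each class had 1 tumour that went against the other 2 of its class. The difference between the classes' responses was -0.33 (SE 0.47, adjusted p = 0.927, edgeR).

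Cdkn1a, the CIP/KIP gene for p21 and a target of p53, was the lowest of the measured inhibitors (ENSMUSG00000023067, chromosome 17, plus strand, 29090976 to 29100727). Its gene model overlaps a predicted gene on the minus strand, and the strand setting of the counting is not given in the sources used here, so reads of the pair cannot be told apart. Without Dox it had 1.94 and 0.701 CPM in VTL-19 and VTL-24, 1.05, 3.91 and 1.48 CPM in VTL-153, VTL-21 and VTL-25, and 1.43, 3.97 and 0.819 CPM in VTL-33, VTL-44 and VTL-81. With Dox it had 0.303, 1.72 and 0.149 CPM in VTL-153, VTL-21 and VTL-25, from 6 counts in VTL-153 and 3 in VTL-25, and 0.661, 3.605 and 1.55 CPM in VTL-33, VTL-44 and VTL-81.

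Each evolving tumour had less Cdkn1a with Dox than without, as had 17.6% of all genes. The group means were 0.724 ± 0.865 CPM with and 2.15 ± 1.54 CPM without (SD, n = 3 each). The term of -1.99 (SE 0.69, adjusted p = 0.212, edgeR) did not pass, and the groups overlapped because of VTL-21. It was -1.45 without VTL-25 and -2.50 without VTL-21. In independent tumours the term was -0.11 (SE 0.66, adjusted p = 1, edgeR). Cdkn1a was highest in both libraries of VTL-44, whose myeloid marker sums were 2049 and 1324 CPM, and in VTL-21 without Dox, whose sum was 19.5 CPM. The part of myeloid RNA in these levels was not tested.

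Per kilobase of exons, which allows levels of different genes to be compared, Cdkn2c and Cdkn2d led in the median library, at 38.4 (range 21.8 to 67.5) and 37.0 (24.1 to 60.2) CPM per kb over 14 libraries. Cdkn1b had a median of 19.6 CPM per kb (13.9 to 39.7) and Cdkn2a of 10.4 (1.08 to 238), and Cdkn1a was lowest at 0.410 (0.0418 to 1.12). The order was different in evolving tumours without Dox, where the mean was 139 CPM per kb for Cdkn2a, 58.2 for Cdkn2c, 50.2 for Cdkn2d, 16.8 for Cdkn1b and 0.604 for Cdkn1a. Cdkn2a was thus the most abundant measured inhibitor RNA there per length. With Dox its evolving mean was 111.8 CPM per kb, from 3.84 in VTL-153 to 238 in VTL-25, and in the dependent and independent groups Cdkn2c or Cdkn2d was highest. Cdkn2c and Cdkn2d, whose medians are neighbours, overlap in range.

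The genes nearest to Cdkn2a in pattern over the 14 libraries were Baiap3, Nwd1 and Sorl1, at root mean square differences of 1.90, 1.93 and 1.99 on the log2 scale. These are not close, since Cdkn2a's own SD was 2.61 and the median over 8192 genes compared was 2.63. For Cdkn1a, Mettl7a1 was nearest at 0.62, then Fam210b at 0.66 and Arhgap23 at 0.73, against a median of 1.32. The 14 libraries come from 8 tumours and are not independent points, so these are descriptions.

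Other genes of the pathway were read in 9 lists, with 107 genes in all tested in at least 1 comparison. With Dox in evolving tumours 3 of them rose and 2 fell, while 2.13% of all 12360 genes passed. In the other 6 comparisons 0 of them passed. Of the 13 CDK partners, Cdk6, the INK4 target kinase, fell by 1.24 (SE 0.22, adjusted p = 0.0465, edgeR), from 749 ± 316 to 298 ± 59.1 CPM (SD, n = 3 each), and the list had a median of -0.28, against -0.00 for all genes. Of the 9 genes in the p27 turnover and FOXO list, Foxo1, a transcription factor that activates Cdkn1b, rose by 1.19 (SE 0.21, adjusted p = 0.0442, edgeR), with a list median of 0.03. Of the 16 transcription factors tested, Id2 rose by 2.85 (SE 0.39, adjusted p = 0.0212) and Id3 by 3.21 (SE 0.53, adjusted p = 0.0388, both edgeR), both encoding inhibitors of E proteins. The median of these 16 was 0.34. Phlda3, a p53 target that restrains AKT, fell by 2.57 (SE 0.46, adjusted p = 0.0466, edgeR), 1 of 14 tested in its list. In that list 10 of the 14 were above 0, at a median of 0.09. These calls rest on the fit with all tumours and are not given without VTL-25, where 49 genes passed in place of 263.

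None of the 10 E2F factors, 20 E2F target genes or 18 Polycomb regulators passed for Dox in evolving tumours, and their medians were -0.12, 0.01 and -0.02. Between independent and evolving tumours without Dox no gene of the 9 lists passed, with medians of -0.27 for the E2F factors, -0.04 for the E2F target genes and -0.14 for the Polycomb regulators, against 0.02 for all genes. The 5 inhibitors had a median of -0.76 there, with Cdkn2a, Cdkn2c and Cdkn2d all lower, and of -0.90 for Dox in evolving tumours. In evolving against dependent tumours 18 of the 20 E2F target genes were above 0, at a median of 0.22, and in independent against dependent tumours, which share the same 2 dependent libraries, 16 of 20 were, at a median of 0.23. The medians of all genes were 0.01 and 0.03, and none of the 20 passed in either.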

How the data were processed

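RNA was sequenced from sorted tumour cells, with libraries made by the NEBNext Ultra II kit from RNA of integrity above 8, per the labels' protocols. The submitters' processing notes name STAR 2.5.2b for alignment, mm10 as genome and featureCounts for counting. The annotation, strand setting and filters are not given in the sources used here. The deposited values were raw counts per gene, not normalised by the authors, with 1 column per library. A further 42 columns with other scalings of the libraries were left aside. CPM used TMM-scaled library sizes (edgeR 4.0.16, R 4.3.3).

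Tests were edgeR quasi-likelihood tests with Benjamini-Hochberg adjustment over all genes tested and a threshold of 0.05, after the default low-count filter (minimum count 10). Dox was tested in 12 libraries with tumour as a block, since the titles give both libraries of a tumour the same number, and classes without this block. The libraries of a tumour deviated together from their group means in 5 tumours (correlations 0.17 to 0.70) but not in VTL-25 (0.04). All 5 measured inhibitors were reported, and list genes were named when they passed, up to 4 per list. Alternatives were RLE scaling, DESeq2 1.42.0, limma 3.58.1 voom, no filter, no block and each tumour left out. Scripts were tested on simulated data. The members and lists were chosen with earlier results of these data known. P-values of the class comparisons measure the spread between tumours, 2 or 3 per class. Those for Dox measure the spread of changes within tumours, over the 6 tumours of both classes in 1 fit.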

Additional observations from a re-analysis of the deposited data

Results flagged for a closer look

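The response of Cdkn2d to Dox was marked for a closer look because every evolving tumour had a lower and every independent tumour a nearly equal or higher value with Dox, VTL-33 by only 0.03 on the log2 scale. Per tumour the log2 changes were -0.82, -0.24 and -0.34 in VTL-153, VTL-21 and VTL-25, and 0.03, 0.28 and 0.40 in VTL-33, VTL-44 and VTL-81. For 15.0% of all genes the changes likewise did not overlap between the classes, and 17.6% were lower with Dox in all 3 evolving tumours. The difference between the classes was 0.70 (SE 0.23), and its adjusted p of 0.358 in edgeR did not pass the threshold. It lay between 0.53 and 0.84 when any 1 tumour was left out.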

How the results depend on the processing

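Numbers of genes called depended on the tool more than on scaling or filtering. For Dox in evolving tumours edgeR called 263 genes, DESeq2 1314, voom 439 and the fit with no replicate block 73; for the difference of responses the numbers were 15, 549, 67 and 1. Independent against dependent gave 12, with DESeq2 791 and voom 0; evolving against dependent 0 and DESeq2 64; independent against evolving 32, DESeq2 1068 and voom 7 without Dox, and 0, 94 and 1 with Dox. Leaving out 1 tumour gave 49 to 347, 0 to 58, 2 to 73, 0 to 1, 3 to 144 and 0 to 4 genes in the same order. DESeq2 called 1, 1 and 1 inhibitor for Dox in evolving tumours, independent against dependent and evolving against dependent. For independent against evolving without Dox it called 3, RLE scaling and voom called 0, and leaving out 1 tumour called 0 to 2. Pairing by tumour changed no inhibitor call.

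Of 395 alternatives for the inhibitor differences, 362 kept direction and side of the threshold, 9 lost and 6 gained a call and 18 changed sign. Cdkn2a with Dox in independent tumours was -0.05, 0.015 with voom and 0.036 with no replicate block. With 1 tumour left out, the ranges that crossed 0 were, for Dox in evolving tumours, -2.66 to 0.25 (Cdkn2a); for Dox in independent tumours, -0.13 to 0.0006 (Cdkn2a) and -0.61 to 0.37 (Cdkn1a); for the difference of responses, -0.30 to 2.61 (Cdkn2a) and -0.84 to 0.019 (Cdkn1b). Cdkn1a ran from -0.23 to 1.56 in independent and from -0.074 to 1.61 in evolving against dependent tumours. Independent against evolving without Dox gave -0.93 to 0.71 (Cdkn1a) and -0.012 to 0.24 (Cdkn1b), and with Dox -0.11 to 0.30 (Cdkn2c), -0.25 to 0.17 (Cdkn2d) and -0.57 to 0.13 (Cdkn1b). The causes were not tested. Depth limits Cdkn1a, with 44 to 145 counts in all per group.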

Other observations

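Cdkn1c, the CIP/KIP gene for p57, was read as the remaining CDK inhibitor gene. It had 33.3 CPM in VTL-19 and 0.701 CPM in VTL-24, both dependent, and 0.202 to 1.38 CPM in all evolving libraries. Among independent tumours, VTL-33 had 3.48 CPM without and 9.74 CPM with Dox, compared with 1.99 and 2.48 CPM for VTL-44 and a drop from 14.1 to 8.35 CPM for VTL-81. Every independent tumour was above every evolving tumour both without and with Dox, opposite to Cdkn2a without Dox. The groups of 23.5% of all genes without Dox and of 9.64% with Dox likewise did not overlap. Evolving tumours had only 64 counts of Cdkn1c in all without and 54 with Dox. The difference without Dox of 2.81 (SE 1.32, adjusted p = 0.348, edgeR) did not pass.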
